A study of Mus musculus with 9 samples.

Results

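Long intergenic non-coding RNA (lincRNA) genes were examined in mouse embryonic fibroblasts (MEFs) that lack pairs of H3K9 lysine methyltransferases (KMT). Of 47937 genes in the count table, 3543 carried the lincRNA type in the GENCODE M21 annotation, and 2262 of these had no count in any library. The expressed lincRNA genes described here are those with 30 or more counts in at least 3 of the 9 libraries. This held for 200 genes, and the imprinted H19 was left out, as Meg3, Rian and Mirg would have been, which left 199. All 199 were among the 15540 genes tested for differential expression.

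The data are total RNA libraries of 3 cultures each of WT, S1S2 and G9Gl cells. All 3 genotypes derive from a single clone with a tamoxifen-inducible conditional allele of Eset1 (Setdb1), and the unmutated clone served as WT. S1S2 cells carry CRISPR/Cas9 disruptions of Suv39h1 and Suv39h2, and G9Gl cells carry disruptions of G9a (Ehmt2) and Glp (Ehmt1). Per the study's methods each mutant is 1 clone, chosen because its target proteins were missing on western blots, so genotype and clone cannot be told apart.

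LincRNAs are transcribed and often spliced like messenger RNAs but encode no known protein, and most are expressed at low levels and in few cell types. Some have structural roles in nuclear bodies, some host small nucleolar RNAs or microRNAs in their introns or exons, and some act on genes close to their own start. The di- and trimethyl forms of H3K9 mark silent chromatin. The mono- and dimethyl forms are placed mainly by G9a and Glp, and the trimethyl form at heterochromatin mainly by the Suv39h enzymes.

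Library totals lay between 21319778 and 32157623 counts, and 3 counts corresponded to 0.0923 to 0.141 CPM (counts scaled to 1000000 per library). Transcripts of the targeted genes were lower for Suv39h1 in S1S2 cells (log2 fold change -1.36) and for Ehmt2 and Ehmt1 in G9Gl cells (-1.20 and -1.04), while Suv39h2 was higher in S1S2 cells (0.70). Setdb1 (-0.37 in S1S2 and -0.16 in G9Gl cells) and Setdb2 (-0.15 and -0.03) were not targeted. The 10 fibroblast marker genes were all detected, with summed levels of 10110 to 11644 CPM in WT, 7444 to 7511 CPM in S1S2 and 8802 to 9681 CPM in G9Gl cells. In S1S2 cells 6 of the 10 were called lower (Col1a2, Col3a1, Thy1, Pdgfra, Pdgfrb and Acta2) and 0 higher, and in G9Gl cells Pdgfra and Pdgfrb were called lower and Thy1 and Acta2 higher. The 4 epithelial markers summed to at most 0.548 CPM in WT, 5.55 CPM in S1S2 (mainly Krt8) and 0.395 CPM in G9Gl cells. The 4 blood and endothelial markers summed to 0.123 to 0.132 CPM in WT, 0.188 to 0.62 CPM in S1S2 and 0.647 to 1.72 CPM in G9Gl cells. The endothelial cadherin gene Cdh5 among them had 0 counts in WT libraries, 2, 3 and 1 in S1S2 and 43, 14 and 31 in G9Gl libraries. Of the 4 pluripotency and neural markers, Tubb3 gave nearly all of the 18 to 42 CPM, and Pou5f1 had no count in any library. Whether these shifts in marker levels have a part in the lincRNA differences was not tested.

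The lincRNAs that rose in G9Gl cells include genes that were far higher in G9Gl than in WT and S1S2 cells, most of them at or near 0 counts in the latter. The starts of 4 of those with a RefSeq promoter entry, and of a gene with the opposite pattern and one that was higher in both mutants, are shown first. RefSeq windows of GRCm38.p6, which run from 250 bases before to 50 bases after a transcription start, matched 86 of the 199 genes within 1 kb of the annotated start, and 21 further genes had an entry more than 1 kb away that was not used. Capitals mark CpG dinucleotides, the substrate of DNA methylation.
Lncenc1 promoter, chr13:97434720-97435019, plus strand: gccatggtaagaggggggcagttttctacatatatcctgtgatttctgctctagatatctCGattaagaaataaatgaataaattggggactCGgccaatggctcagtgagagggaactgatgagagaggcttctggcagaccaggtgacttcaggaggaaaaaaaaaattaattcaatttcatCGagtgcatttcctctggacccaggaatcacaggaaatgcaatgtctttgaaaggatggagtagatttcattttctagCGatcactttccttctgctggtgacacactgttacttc
A230006K03Rik promoter, chr7:61311600-61311899, minus strand: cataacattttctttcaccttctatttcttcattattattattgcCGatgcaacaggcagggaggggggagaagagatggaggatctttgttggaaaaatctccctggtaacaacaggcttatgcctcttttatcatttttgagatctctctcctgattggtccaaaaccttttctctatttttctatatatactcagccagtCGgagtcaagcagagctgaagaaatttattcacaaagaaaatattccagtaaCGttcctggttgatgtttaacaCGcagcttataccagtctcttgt
G730013B05Rik promoter, chr16:50525995-50526294, plus strand: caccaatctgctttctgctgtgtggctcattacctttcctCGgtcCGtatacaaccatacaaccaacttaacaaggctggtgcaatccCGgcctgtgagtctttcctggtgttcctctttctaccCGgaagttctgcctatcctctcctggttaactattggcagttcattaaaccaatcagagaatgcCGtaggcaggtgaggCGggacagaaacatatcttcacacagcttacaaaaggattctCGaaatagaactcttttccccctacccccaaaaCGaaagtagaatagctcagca
4930461G14Rik promoter, chr9:58454923-58455222, plus strand: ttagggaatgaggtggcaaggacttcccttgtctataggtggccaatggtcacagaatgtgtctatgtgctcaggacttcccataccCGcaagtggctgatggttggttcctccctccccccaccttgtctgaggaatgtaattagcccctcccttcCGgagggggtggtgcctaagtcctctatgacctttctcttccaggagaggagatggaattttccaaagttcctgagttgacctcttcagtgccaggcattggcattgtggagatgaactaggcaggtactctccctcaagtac
2410018L13Rik promoter, chr12:23010194-23010493, minus strand: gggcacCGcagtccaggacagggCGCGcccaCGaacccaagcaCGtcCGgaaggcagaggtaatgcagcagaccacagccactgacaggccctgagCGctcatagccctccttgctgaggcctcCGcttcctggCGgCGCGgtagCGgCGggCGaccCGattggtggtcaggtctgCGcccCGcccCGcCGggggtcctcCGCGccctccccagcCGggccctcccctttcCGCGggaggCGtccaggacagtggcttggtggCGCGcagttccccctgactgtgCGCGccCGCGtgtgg
Mirt1 promoter, chr19:53464747-53465046, minus strand: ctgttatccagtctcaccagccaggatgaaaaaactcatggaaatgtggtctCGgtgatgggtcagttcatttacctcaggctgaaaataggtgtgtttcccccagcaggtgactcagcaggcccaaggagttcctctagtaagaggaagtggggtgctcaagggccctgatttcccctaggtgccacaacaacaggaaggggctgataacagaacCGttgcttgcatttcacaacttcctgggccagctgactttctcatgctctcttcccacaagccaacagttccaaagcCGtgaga

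The 4 windows of the genes that were high in G9Gl cells hold 4, 4, 8 and 2 CpGs in the order given, against 31 in the window of 2410018L13Rik and 3 in that of Mirt1. Over the 15 lincRNAs that rose in G9Gl against WT and have a window, the median was 4 CpGs, compared with 15 for the 58 lincRNAs that were called in no comparison and 7 for all 32817 promoter windows. A GC box (GGGCGG, on either strand) was present in 2 of these 15 windows (13.3%), in 32 of the 58 (55.2%) and in 35.6% of all windows. A CCAAT box (CCAAT, on either strand) was present in 8 of the 15 (53.3%), in 19 of the 58 (32.8%) and in 37.4% of all windows. For a TATA box (TATAAA, on either strand) the shares were 1 of 15, 9 of 58 and 13.6%. The 23 lincRNAs whose start faces a protein-coding start within 1 kb had a median of 34 CpGs and the other 63 a median of 8, so that position and CpG content move together among these genes. Of the 28 rises in G9Gl, 21 are genes that met the count rule through the G9Gl libraries alone, as did 3 of the 4 shown here, so the contrast with the other genes is largely one with genes admitted because they were high in G9Gl. These are counts of letters in fixed windows, given as a description, and no binding was measured.

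The comparison with WT asked how many lincRNAs differed in the absence of each enzyme pair. In bulk RNA, fewer cells of a type and less RNA per cell cannot be told apart. A gene was called at an adjusted p of at most 0.01 in edgeR's quasi-likelihood test and a fold change of at least 2. In S1S2 against WT, 11 lincRNAs were called higher (5.53%) and 16 lower (8.04%), where 4.66% and 4.34% of all genes tested were called. In G9Gl against WT, 28 were higher (14.1%) and 6 lower (3.02%), where the background was 6.77% and 3.4% of all genes tested. In G9Gl against S1S2, 36 were higher (18.1%) and 14 lower (7.04%), where it was 7.97% and 5.08%. The libraries compared did not overlap for any of these calls. At the same p without the fold limit, 12.1% of lincRNAs were higher and 14.6% lower in S1S2, below 20.3% and 17.6% of all genes. In G9Gl it was 18.1% and 13.1% of lincRNAs, where 19% and 16% of all genes passed. Between the mutants it was 22.1% and 17.1%, where 21.6% and 21.1% of all genes passed. Against WT, lincRNA shares above those of all genes were thus seen at this p only with the fold limit. In all, 59 lincRNAs were called in at least 1 comparison and 140 in none, and 91 did not reach an adjusted p of 0.01 in any.

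The share called must be read with the rule that chose the genes. Of the 199, 116 passed 30 counts in all 9 libraries, and 25 passed in exactly 3 libraries that were the 3 of 1 genotype, 21 in G9Gl, 4 in S1S2 and 0 in WT. Such a gene had to differ to be included. All 21 of the first kind were among the 28 rises of G9Gl against WT, and all 4 of the second were among the 11 rises of S1S2. Without the 25, 174 lincRNAs remained, of which 6 were higher and 12 lower in S1S2 (3.45% and 6.90%), 7 higher and 5 lower in G9Gl (4.02% and 2.87%), and 16 higher and 10 lower between the mutants (9.20% and 5.75%). Of the 116 that passed in every library, 1 was higher and 3 lower in S1S2, and 1 higher and 2 lower in G9Gl. The background holds such genes too, so these shares are not set against it.

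The threshold itself cuts through a dense range of counts. Just inside it, for 13 lincRNAs the third highest count was 30 to 33, and just outside it was 26 to 29 for 21. At 30 counts stood Gm13067, Gm26510, Gm26637 and Gm9949, and at 29 Gm11264, Gm13816, Gm26551 and Gm26812.

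The median log2 fold change of the 199 genes was -0.07 in S1S2, -0.14 in G9Gl and -0.04 between the mutants, compared with -0.0032, -0.0067 and 0.00016 over all genes tested. Antisense genes under the same count rule (155 genes) had medians of -0.18, -0.16 and -0.02, and the 150 genes of the processed_transcript type -0.13, -0.12 and -0.0041. For the 11495 protein-coding genes the medians were 0.0041, 0.01 and 0.0077. Against WT the lincRNA medians thus lay slightly below the protein-coding ones, as did those of the other non-coding types. Between the mutants the lincRNA median was 0.016 without genes whose exons overlap another gene and -0.19 for the genes that passed in all 9 libraries.

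LincRNAs were low. Their median level in WT cells was 2.27 CPM, with a middle range of 1.21 to 5.83 CPM, and 36 of the 199 reached 10 CPM. Below 5 CPM, a smaller share of lincRNAs than of protein-coding genes was called. Under 1.5 CPM, 23.7% of 59 lincRNAs and 35.0% of 506 protein-coding genes were called in S1S2, and 28.8% and 52.4% in G9Gl. From 1.5 to under 5 CPM the shares were 12.3% of 81 lincRNAs and 29.6% of 1027 protein-coding genes in S1S2, and 14.8% and 32.8% in G9Gl. At 5 CPM or more they were 5.08% of 59 and 4.76% of 9962 in S1S2, and 8.47% and 4.55% in G9Gl. These shares were not tested against each other.

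**Figure D1:**
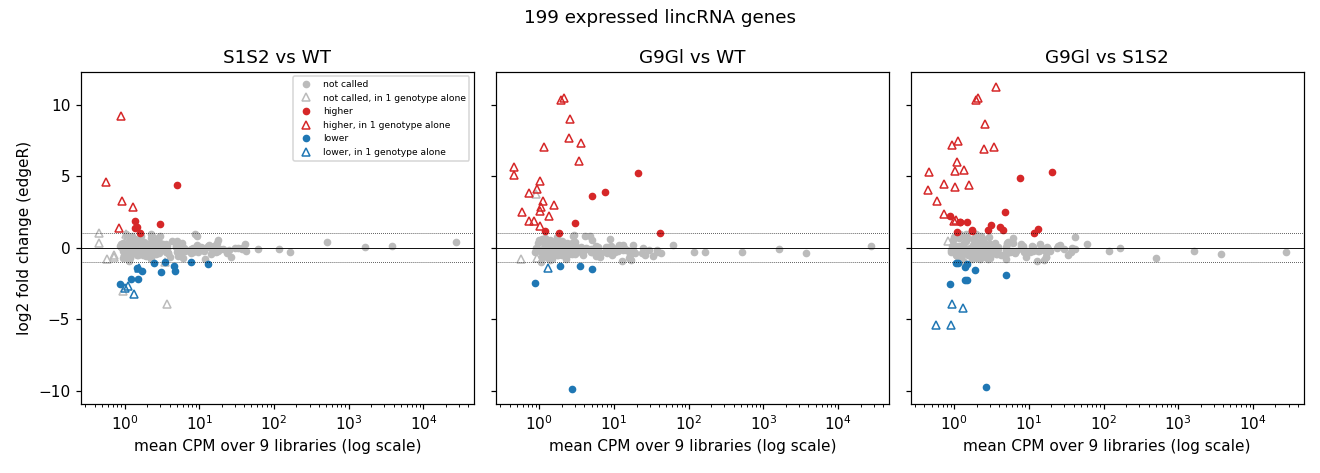
Log2 fold change (edgeR, y axis) against the mean level over 9 libraries in CPM (x axis, log scale) for 199 lincRNA genes in 3 comparisons. Red and blue mark called genes and grey the others, triangles are the 25 genes that pass 30 counts in the libraries of 1 genotype alone, and dotted lines mark 2-fold; the large rises in G9Gl are mostly triangles.

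The lincRNAs that rose in G9Gl cells included Lncenc1, which is abundant in naive embryonic stem cells and had a low level in WT, and Platr3, named as a pluripotency-associated transcript, which had no count in WT. Lncenc1 (chromosome 13, 97434970 to 97497007) was measured at 1.42, 1.52 and 1.68 CPM in WT, at 1.15, 1.28 and 2.02 CPM in S1S2 and at 60.4, 61.3 and 55.7 CPM in G9Gl libraries. The WT and S1S2 libraries overlapped and all G9Gl libraries stood far above both, with log2 fold changes of 5.26 (SE 0.08, adjusted p = 1.6e-16) against WT and 5.33 (SE 0.24, adjusted p = 2.3e-16) against S1S2. Its nearest protein-coding gene, Enc1, lies 182 kb away and had a log2 change of 0.34 in G9Gl (adjusted p = 0.0043), under the 2-fold limit. In WT cells Lncenc1 passed 30 counts in every library, so its inclusion did not rest on G9Gl cells.

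Platr3 (chromosome 2, 135648907 to 135652063) had 0 counts in all WT and S1S2 libraries and 4.49, 7.15 and 5.78 CPM in G9Gl libraries. This is at least 60.4-fold higher than in WT and at least 44.9-fold higher than in S1S2, computed against a floor of 3 counts per library (adjusted p = 3.2e-09 and 5.8e-09). Platr3 is the gene of this group with the closest neighbour. Plcb4, which encodes a phospholipase C, lies 6.95 kb away on the same strand and had 1.82, 1.39 and 1.42 CPM in WT, 0.46, 0.437 and 0.705 CPM in S1S2 and 31.7, 28.7 and 29.9 CPM in G9Gl libraries. Plcb4 rose with it, by a log2 fold change of 4.28 against WT (adjusted p = 6.0e-15).

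1700019E08Rik (chromosome 2, 45696605 to 45698447), a lincRNA without a known role, likewise had 0 counts in all 6 WT and S1S2 libraries. It reached 5.72, 6.86 and 6.46 CPM in G9Gl libraries, at least 66.1-fold above WT and at least 49.0-fold above S1S2 (adjusted p = 3.3e-10 and 5.9e-10). Its nearest protein-coding gene, Zeb2, is 579 kb away and had a log2 change of -0.22 in G9Gl.

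A230006K03Rik (chromosome 7, 61127996 to 61311721) did not exceed 3 counts in WT libraries, with 0 in S1S2 libraries and 10.2, 12.2 and 10.4 CPM in G9Gl libraries. It was at least 114-fold above WT and at least 84.5-fold above S1S2 (adjusted p = 2.6e-12 and 3.2e-12). Its nearest protein-coding gene, the imprinted Snrpn at 988 kb, went the other way, from 1.63, 1.79 and 1.42 CPM in WT to 0 in all G9Gl libraries. A230006K03Rik overlaps an exon of Gm38451 on the same strand, so a part of its reads could belong to that gene.

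G730013B05Rik (chromosome 16, 50526245 to 50559459) was hit by no more than 1 count in a WT or S1S2 library and 7.90, 7.61 and 7.64 CPM in G9Gl libraries. The 3 G9Gl values lay close together, at least 80.3-fold above WT and at least 59.6-fold above S1S2 (adjusted p = 1.1e-12 and 2.6e-12). Its nearest protein-coding gene, Ccdc54 at 30.4 kb, was too low to be tested.

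4930461G14Rik (chromosome 9, 58455122 to 58469635) did not exceed 3 counts in WT or S1S2 libraries and reached 6.91, 7.11 and 8.32 CPM in G9Gl libraries, at least 77.6-fold above WT and at least 57.6-fold above S1S2 (adjusted p = 5.9e-12 and 1.6e-11). Its neighbour at 19 kb, Insyn1, was higher in G9Gl by 0.45 (adjusted p = 0.00041), under the 2-fold limit. 2410012E07Rik (chromosome 14, 70852933 to 70873954) reached 3.44, 3.02 and 3.69 CPM in G9Gl libraries from at most 2 counts elsewhere, at least 35.2-fold above WT and at least 26.1-fold above S1S2. The neurturin receptor gene Gfra2, 16.2 kb away, had lower levels in both mutants than in WT, with log2 fold changes of -3.56 in S1S2 and -0.88 in G9Gl. Against WT the pair thus did not move together. In G9Gl against S1S2 both were called higher, by 7.50 for 2410012E07Rik and 2.68 for Gfra2.

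C78283 (chromosome 5, 73946381 to 73948376) was among the largest rises between the mutants. It had 8, 4 and 2 counts in WT, 3, 2 and 0 counts in S1S2 and 10.8, 9.88 and 9.56 CPM in G9Gl libraries. This was a rise by 6.04 on the log2 scale against WT (SE 0.36, adjusted p = 2.7e-12) and at least 77.9-fold above S1S2. Its neighbour Usp46, a deubiquitinase gene 50.1 kb away, had a log2 change of 0.26.

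None of these 8 genes other than A230006K03Rik overlapped an exon of another annotated gene, and all had 0% of their 75-mers, the read length of the libraries, in another annotated transcript. The 14 further lincRNAs that rose in G9Gl against WT but were named under no part of the rule for any comparison had log2 fold changes of 1.05 to 5.68 and mean levels of 0.453 to 7.64 CPM. One pair among them, chosen after its values were seen, is AI839979 and Gm43660, which both have Slc4a1ap as their nearest protein-coding gene. AI839979 had 1.42, 1.39 and 1.42 CPM in WT, 0.781, 0.51 and 0.846 CPM in S1S2 and 21.1, 21.3 and 20 CPM in G9Gl libraries, and Gm43660 had 4.18, 4.13 and 3.72 CPM in G9Gl libraries against at most 0.584 CPM elsewhere. Slc4a1ap itself had a log2 fold change of 0.04 in G9Gl (adjusted p = 0.55).

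Over the 21 lincRNAs that passed the count rule in G9Gl cells alone, the mean level was 1.26 to 10.9 CPM in G9Gl cells, with a median of 2.82 CPM. In WT the same genes had a median of 0.148 CPM and 8 of 21 were at or under 3 counts in every library. In S1S2 the median was 0.0703 CPM and 13 of 21 were at or under 3 counts.

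Few lincRNAs fell in G9Gl cells. 2410018L13Rik (chromosome 12, 22953997 to 23010284), without a known role, had 4.28, 4.40 and 3.90 CPM in WT, 3.77, 4.34 and 3.62 CPM in S1S2 and 0 counts in all G9Gl libraries. It was at least 40.4-fold lower than in WT and at least 37.7-fold lower than in S1S2 (adjusted p = 8.2e-11 and 9.8e-11), where the WT and S1S2 libraries overlapped. Its exons overlap Gm48046 and Gm49686 on the same strand and 38.4% of its 75-mers are found in another gene, so its reads cannot be assigned with certainty. Its nearest protein-coding gene, Gm10330, is 769 kb away and was too low to be tested.

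Gm15834 (chromosome 1, 58505148 to 58523230) starts beside Orc2 and overlaps Fam126b on the opposite strand. It had 5.63, 5.12 and 5.67 CPM in WT, 7.77, 7.07 and 7.90 CPM in S1S2 and 2.39, 2.26 and 1.31 CPM in G9Gl libraries. The G9Gl libraries lay below all others, with log2 fold changes of -1.47 against WT (SE 0.27, adjusted p = 1.3e-06) and -1.94 against S1S2 (SE 0.27, adjusted p = 2.7e-08). Fam126b had -0.35 in the same comparison (adjusted p = 0.00052), and the strand setting of the counting is not given in the sources used here, so reads of the 2 genes may not be separated.

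Gm13166 lies on chromosome 4 (146251829 to 146278434) and had 1.82, 2.35 and 2.51 CPM in WT, 2.90, 2.55 and 2.40 CPM in S1S2 and 1.30, 0.826 and 0.588 CPM in G9Gl libraries. It fell by 1.30 on the log2 scale against WT (SE 0.34, adjusted p = 0.00032), and 59.1% of its 75-mers occur in other genes, which makes this value uncertain. Its nearest protein-coding gene, the zinc finger gene Zfp600 at 53.1 kb, had 0.827, 1.46 and 1.18 CPM in S1S2 and at most 0.0308 CPM in any other library. Gm26624, which is outside the rule for named genes, was also called lower in G9Gl cells, at 1.54, 0.893 and 1.03 CPM in WT and 0.175, 0.216 and 0.228 CPM in G9Gl libraries. It lies within Zfp991, which was lower in G9Gl cells too (log2 fold changes of -2.46 for Gm26624 and -1.27 for Zfp991).

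**Figure D2:**
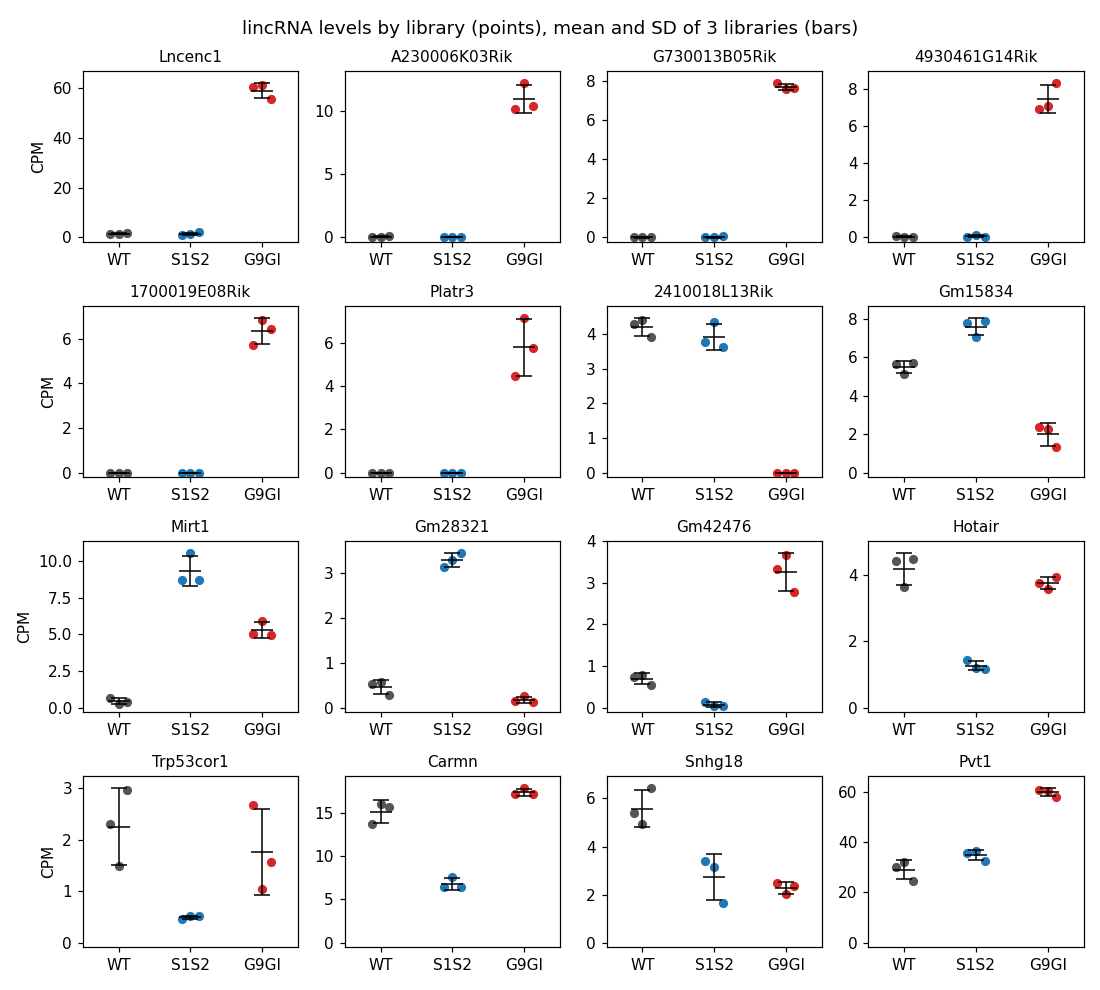
Levels of 16 named lincRNAs in CPM (y axis, linear, from 0) by genotype, with a point per library and the mean and SD of 3 libraries. Lncenc1, A230006K03Rik, G730013B05Rik, 4930461G14Rik, 1700019E08Rik and Platr3 are high in the 3 G9Gl libraries alone, and 2410018L13Rik is at 0 in these.

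In S1S2 cells, the largest rise among lincRNAs with a mean of at least 1 CPM over the 9 libraries was Mirt1, a transcript named for its association with myocardial infarction. Mirt1 (chromosome 19, 53443230 to 53464796) had 0.646, 0.231 and 0.419 CPM in WT, 8.73, 10.5 and 8.70 CPM in S1S2 and 5.05, 5.93 and 4.93 CPM in G9Gl libraries. It was higher in all libraries of both mutants, by 4.41 on the log2 scale in S1S2 (SE 0.37, adjusted p = 2.2e-11), and by 3.59 for G9Gl against WT (SE 0.37, adjusted p = 4.9e-10). The difference between the mutants was -0.82 (SE 0.12, adjusted p = 0.00011), under the 2-fold limit. Its neighbour Smndc1, a splicing factor gene 52.7 kb away, had a log2 change of -0.03 in S1S2. Mirt1 overlaps 4833407H14Rik on the opposite strand and shares 10.5% of its 75-mers with other genes.

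Gm28321 (chromosome 1, 50815375 to 50817701) passed the count rule in S1S2 cells alone. It had 0.523, 0.562 and 0.290 CPM in WT, 3.13, 3.28 and 3.43 CPM in S1S2 and 0.140, 0.251 and 0.131 CPM in G9Gl libraries. It rose by 2.83 on the log2 scale in S1S2 (SE 0.26, adjusted p = 5.3e-08), while the value for G9Gl was -1.39 (SE 0.33, adjusted p = 0.0099). The fall in G9Gl lies at the edge of the threshold. It was lost in DESeq2 (-1.40), with DESeq2 size factors (-1.38) and with a replicate block (-1.38). It was also lost on leaving out any 1 library other than the third WT or the second G9Gl library (-1.39 to -1.21). Tmeff2, 82.9 kb away, rose in both mutants (1.06 and 1.44).

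The other S1S2 rises above 1 CPM were smaller. Gm44275 (chromosome 6) had 0.892, 1.49 and 1.19 CPM in WT, 4.28, 3.28 and 3.86 CPM in S1S2 and 3.40, 4.49 and 4.15 CPM in G9Gl libraries, so it rose in both mutants (1.67 and 1.76). Its neighbour Pbp2, 1.75 kb away on the same strand, rose with it in both (1.56 and 1.43), at levels of at most 2.26 CPM.

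Gm19705 (chromosome 1) had 0.800, 0.298 and 0.935 CPM in WT and 2.11, 3.13 and 2.35 CPM in S1S2 libraries (log2 fold change 1.90, SE 0.48, adjusted p = 0.00011), and Zfp281, 40.7 kb away, had a log2 change of 0.13. Gm17399 (chromosome 9), which starts 0.054 kb from Cmc1 on the opposite strand, had 0.954, 0.926 and 1.22 CPM in WT, 2.21, 3.68 and 2.63 CPM in S1S2 and 0.737, 0.647 and 0.392 CPM in G9Gl libraries. It rose by 1.47 in S1S2 (SE 0.24, adjusted p = 8.4e-05) and was lower in G9Gl than in S1S2 cells by 2.28 on the log2 scale, whereas Cmc1 had a log2 change of 0.28 in S1S2.

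A330074K22Rik (chromosome 8), which lies against Gse1 and overlaps Gm20388, had 0.861, 0.860 and 1.29 CPM in WT and 2.53, 2.00 and 3.29 CPM in S1S2 libraries. Its rise of 1.36 (SE 0.27, adjusted p = 0.0018) was lost without the first WT library (1.25) and without the third S1S2 library (1.16). The 5 remaining rises had fitted log2 fold changes of 1.03 to 9.22, and 3 of them (Gm10660, BC026762 and Gm10874) passed the count rule in S1S2 cells alone. In WT libraries Gm10660 had 0 counts, BC026762 at most 3 and Gm10874 at most 8. Their levels in S1S2 libraries were 2.90, 2.88 and 2.21 CPM for Gm10660, 1.79, 1.60 and 1.46 CPM for BC026762 and 2.67, 2.44 and 2.07 CPM for Gm10874, so that Gm10660 was at least 27.7-fold and BC026762 at least 16.8-fold higher than in WT and Gm10874 higher by 3.26 on the log2 scale. Gm10874 shares 53.8% of its 75-mers with other genes.

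Among the 16 lincRNAs that fell in S1S2 cells was Hotair. Hotair (chromosome 15, 102944062 to 102947730) is transcribed from the HoxC cluster and is known for its interaction with Polycomb complexes. It had 4.43, 3.64 and 4.48 CPM in WT, 1.43, 1.20 and 1.18 CPM in S1S2 and 3.76, 3.59 and 3.95 CPM in G9Gl libraries. The S1S2 libraries lay below all others, with a difference of -1.72 on the log2 scale against WT (SE 0.13, adjusted p = 2.2e-07), and that in G9Gl was -0.15 (adjusted p = 0.39). Hoxc12, its nearest protein-coding gene at 5.45 kb, had a log2 change of -0.01 in S1S2.

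Gm26523 (chromosome 1, 163301790 to 163303620) lies within Prrx1, which encodes a homeodomain factor of mesenchyme. It had 2.12, 1.29 and 1.97 CPM in WT, 0.552, 0.364 and 0.282 CPM in S1S2 and 1.47, 1.29 and 1.47 CPM in G9Gl libraries, a log2 fold change of -2.16 in S1S2 (SE 0.32, adjusted p = 1.3e-05). Prrx1 fell alongside, from 104, 104 and 106 CPM in WT to 17.5, 19.9 and 20.2 CPM in S1S2 libraries (-2.44). Both are on the same strand, so reads of the Prrx1 precursor RNA could count for Gm26523, and this was not tested.

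A similar pair, chosen after its values were seen, is Gm43050 and Tbx5, a T-box gene of limb and heart, whose starts face each other. Gm43050 had 2.68, 2.38 and 2.61 CPM in WT and 0.965, 0.656 and 0.846 CPM in S1S2 libraries. It fell by 1.65 on the log2 scale and Tbx5 by 1.91.

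Gm42476, Gm26849 and D5Ertd605e were called lower in S1S2 but higher in G9Gl cells, as were AI839979 and Gm43660 (log2 fold changes of -1.01 and -1.39 in S1S2 and 3.88 and 3.02 in G9Gl). Gm42476 (chromosome 3, 81032954 to 81033774) had 0.738, 0.793 and 0.548 CPM in WT, at most 3 counts in an S1S2 library and 3.33, 3.66 and 2.77 CPM in G9Gl libraries. It was at least 5.36-fold lower in S1S2 than in WT (adjusted p = 3.3e-05) and higher in G9Gl by 2.22 on the log2 scale (SE 0.19, adjusted p = 2.9e-07). Pdgfc, a growth factor gene 2.64 kb away on the same strand, went the same ways but by less than 2-fold, with -0.93 in S1S2 and 0.49 in G9Gl.

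Gm26849 (chromosome 9, 70169986 to 70197548) had 0.369, 0.496 and 0.451 CPM in WT, at most 2 counts in an S1S2 library and 2.60, 2.41 and 2.68 CPM in G9Gl libraries. It was at least 3.39-fold lower in S1S2 (adjusted p = 0.00017) and rose by 2.54 in G9Gl (SE 0.12, adjusted p = 7.6e-08), while the myosin gene Myo1e, 9.80 kb away, had a log2 change of -0.02 and 0.42. D5Ertd605e (chromosome 5, 147418601 to 147423044) had 6, 13 and 9 counts in WT, 2, 1 and 0 counts in S1S2 and 2.95, 2.73 and 3.26 CPM in G9Gl libraries. Its rise in G9Gl was 3.30 (SE 0.29, adjusted p = 3.5e-08), and its neighbour Pan3, 7.12 kb away, had a log2 change of -0.09. Its fall in S1S2, at least 2.33-fold (adjusted p = 0.0035), rests on few counts and was lost without the second WT library (-2.35), the second S1S2 library (-2.58) or the third S1S2 library (-2.21).

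The p53-induced lincRNA-p21, Trp53cor1 (chromosome 17, 29057430 to 29079179), lies upstream of the cell cycle inhibitor gene Cdkn1a. It had 2.31, 1.49 and 2.96 CPM in WT, 0.460, 0.510 and 0.517 CPM in S1S2 and 2.67, 1.04 and 1.57 CPM in G9Gl libraries. The WT and G9Gl libraries overlapped and the S1S2 libraries lay below both (log2 fold change -2.17 in S1S2, SE 0.28, adjusted p = 0.00011). Cdkn1a, 11.8 kb away, was higher by less than 2-fold, going from 8.98, 8.79 and 9.64 CPM in WT to 16.5, 15.2 and 19.7 CPM in S1S2 libraries (0.90). AC167363.1 overlaps Trp53cor1 on the opposite strand, and 35.6% of its 75-mers are shared. The 7 remaining falls in S1S2 had log2 fold changes of -2.52 to -1.01. One of them, Ptgs2os2, chosen after its values were seen, lies 50.8 kb from the prostaglandin synthase gene Ptgs2 on the opposite strand and had 5.14, 4.63 and 4 CPM in WT, 1.43, 1.86 and 0.988 CPM in S1S2 and 8.56, 7.97 and 8.23 CPM in G9Gl libraries (log2 fold change -1.66 in S1S2).

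**Figure D3:**
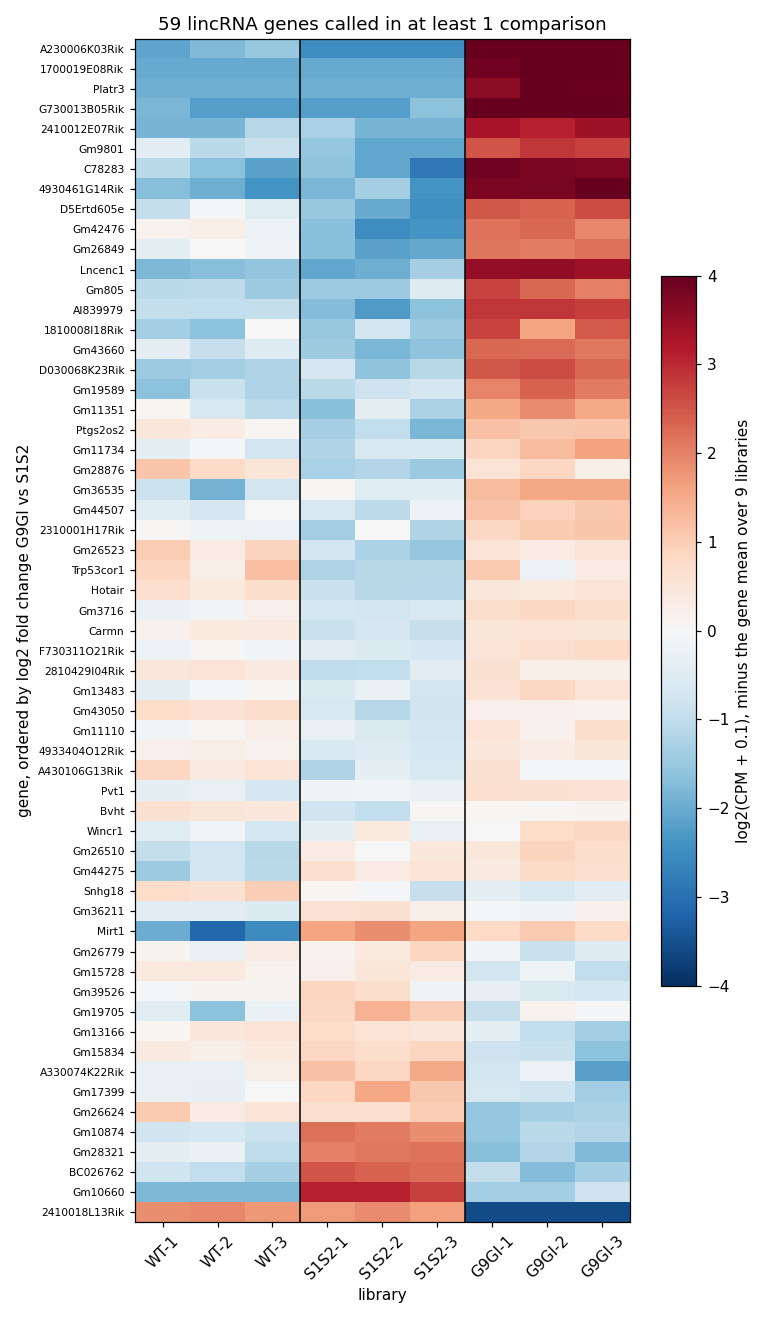
Levels of the 59 lincRNAs called in at least 1 comparison in each of 9 libraries, as log2(CPM + 0.1) minus the mean of the gene over the libraries (colour, red above and blue below the mean). Rows are ordered by the log2 fold change of G9Gl against S1S2, with genes high in G9Gl at the top and genes high in S1S2, and 2410018L13Rik, at the bottom.

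LincRNAs with a known role were taken from lists of 98 names, of which 23 were among the 199 genes. Of the other names, 25 carry the processed_transcript type and 10 the antisense type, 14 are lincRNAs that were left out or failed the count rule, and 20 had no match. Of the 23, 1 rose and 5 fell in S1S2, 3 rose and 1 fell in G9Gl, and 4 rose and 0 fell between the mutants. Over all genes tested, 4.66% and 4.34% were called higher and lower in S1S2, 6.77% and 3.4% in G9Gl, and 7.97% and 5.08% between the mutants, and counts this small are given as a description. Their median log2 fold changes were -0.12, -0.29 and -0.20.

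The nuclear body RNAs are the most abundant of these. Malat1, a component of nuclear speckles, had 4033, 3904 and 3883 CPM in WT, 4259, 4083 and 4325 CPM in S1S2 and 3074, 3257 and 2952 CPM in G9Gl libraries. The G9Gl libraries lay below the others, by -0.35 (SE 0.04, adjusted p = 9.2e-06), short of the 2-fold limit. Neat1, which builds paraspeckles, had 502, 545 and 429 CPM in WT, 659, 621 and 632 CPM in S1S2 and 376, 420 and 390 CPM in G9Gl libraries. Against WT, S1S2 was higher (0.37, SE 0.10, adjusted p = 0.00016) and G9Gl lower (-0.31, SE 0.11, adjusted p = 0.00081), each by less than 2-fold. The 2 genes are neighbours on chromosome 19.

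Of the X inactivation centre, Jpx and Ftx were expressed and Xist had at most 9 counts in a library. Ftx had 31.8, 35.1 and 34.3 CPM in WT, 21.6, 21.3 and 20.2 CPM in S1S2 and 23.5, 23.9 and 23.9 CPM in G9Gl libraries, and both mutants lay below WT by less than 2-fold (-0.68 and -0.51, adjusted p = 6.5e-08 and 1.5e-06). Jpx, an activator of Xist, had log2 fold changes of -0.30 and -0.21 that did not pass (adjusted p = 0.14 and 0.29).

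Among 5 hosts of small nucleolar RNAs, Snhg18 alone was called against WT, and none between the mutants, where 9% of all genes tested were called in S1S2, 10.2% in G9Gl and 13.1% between the mutants. Snhg18 (chromosome 15, 32240565 to 32244662) had 5.38, 4.93 and 6.41 CPM in WT, 3.40, 3.13 and 1.65 CPM in S1S2 and 2.49, 2.01 and 2.35 CPM in G9Gl libraries. It fell by 1.28 on the log2 scale in G9Gl (SE 0.14, adjusted p = 3.2e-05) and by 1.02 in S1S2 (SE 0.34, adjusted p = 0.00034), and the second call was lost without the third WT library (-0.91) or the third S1S2 library (-0.77). Its start faces that of Sema5a, an axon guidance gene, at 0.148 kb. Sema5a went from 21.7, 21.5 and 19.2 CPM in WT to 59.6, 58.2 and 54.4 CPM in S1S2 and to 3.72, 4.56 and 3.69 CPM in G9Gl libraries, so the 2 divergent genes moved in opposite directions in S1S2 and in the same direction in G9Gl cells.

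Snhg6 had 36.8, 36.3 and 38.7 CPM in WT, 36.8, 35.4 and 37.2 CPM in S1S2 and 23.9, 26.7 and 25.9 CPM in G9Gl libraries, lower in G9Gl by less than 2-fold (-0.54, SE 0.05, adjusted p = 4.9e-07). Snhg12 was lower in G9Gl by 0.35 on the log2 scale (adjusted p = 0.0042). Snhg20 and Epb41l4aos, with log2 fold changes of -0.13 and -0.29 in G9Gl, did not pass (adjusted p = 0.28 and 0.062).

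The genes of growth and DNA damage responses numbered 7. Of these, Trp53cor1 and Bvht were called lower in S1S2, where 4.34% of all genes were, and Pvt1 higher in G9Gl, where 6.77% were, and the calls of Bvht (-0.97 without the first and -0.87 without the second S1S2 library) and Pvt1 were lost on leaving out 1 library. Pvt1 lies downstream of Myc. Pvt1 (chromosome 15, 62037986 to 62378096) had 30.2, 31.9 and 24.7 CPM in WT, 35.6, 36.6 and 32.6 CPM in S1S2 and 60.7, 60.4 and 57.9 CPM in G9Gl libraries. The G9Gl libraries lay above all others, with a rise by 1.04 on the log2 scale (SE 0.12, adjusted p = 3.1e-09) that fell to 0.94 without the third WT library and so below the 2-fold limit. Myc, 47.6 kb away, had log2 fold changes of 0.46 in G9Gl and 0.35 in S1S2, under the 2-fold limit.

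Norad (annotated as 2900097C17Rik), which binds Pumilio proteins, and Cyrano (1700020I14Rik), which binds miR-7, were slightly lower in both mutants. Norad had log2 fold changes of -0.24 in S1S2 and -0.34 in G9Gl (adjusted p = 0.00097 and 3.3e-05), with 34.5% of its 75-mers shared with other genes, and Cyrano had -0.30 and -0.32 (adjusted p = 4.1e-05 and 2.0e-05). Lncpint, a p53-induced transcript, had 0.25 and -0.20 (adjusted p = 0.20 and 0.31), and Lockd, downstream of Cdkn1b, had 0.03 and -0.27 (adjusted p = 0.85 and 0.030). Dubr, a regulator of Dppa2 in muscle precursors, had 14.7, 13.7 and 16.0 CPM in WT and 20.3, 22.7 and 20.7 CPM in S1S2 libraries, higher by less than 2-fold (0.52, SE 0.08, adjusted p = 1.9e-05).

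Bvht and Carmn, which are known from heart and smooth muscle, lie next to each other in the genome. Carmn had 13.7, 16.0 and 15.7 CPM in WT, 6.44, 7.62 and 6.40 CPM in S1S2 and 17.1, 17.8 and 17.1 CPM in G9Gl libraries, and fell in S1S2 by 1.14 on the log2 scale (SE 0.11, adjusted p = 2.8e-08). Bvht had 3.63, 3.27 and 3.16 CPM in WT, 1.29, 1.13 and 2.40 CPM in S1S2 and 2.46, 2.41 and 2.51 CPM in G9Gl libraries. Its fall of 1.09 in S1S2 (SE 0.33, adjusted p = 0.00046) was lost without the first (-0.97) or the second (-0.87) S1S2 library. The smooth muscle actin gene Acta2 was lower in S1S2 and higher in G9Gl than in WT (-2.68 and 1.96), and 6 of the 10 fibroblast markers were called lower in S1S2, and their part in these values was not tested.

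MicroRNAs are cut from the primary transcripts of some lincRNAs, so the hosts were examined as a class. By position and strand, 9 of the 199 genes enclose 18 microRNA genes of RefSeq. The hosts Mir17hg, 6720427I07Rik, Mir155hg, A430106G13Rik and Ftx passed an adjusted p of 0.01 in a comparison with WT, as did 20.3% (higher) and 17.6% (lower) of all genes tested in S1S2 and 19% and 16% in G9Gl. One arm of each of their microRNAs is given here with the seed, bases 2 to 8, in capitals, and mature microRNAs themselves were not measured.
miR-17-5p in Mir17hg: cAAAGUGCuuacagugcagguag
miR-20a-5p in Mir17hg: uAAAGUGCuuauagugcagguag
miR-18a-5p in Mir17hg: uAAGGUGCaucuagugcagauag
miR-19a-3p in Mir17hg: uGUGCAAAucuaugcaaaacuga
miR-19b-3p in Mir17hg: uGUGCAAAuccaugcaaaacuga
miR-92a-3p in Mir17hg: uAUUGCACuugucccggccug
let-7a-5p in 6720427I07Rik: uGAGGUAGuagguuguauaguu
let-7d-5p in 6720427I07Rik: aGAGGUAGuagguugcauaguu
let-7f-5p in 6720427I07Rik: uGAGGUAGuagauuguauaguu
miR-155-5p in Mir155hg: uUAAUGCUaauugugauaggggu
miR-181b-5p in A430106G13Rik: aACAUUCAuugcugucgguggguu
miR-421-5p in Ftx: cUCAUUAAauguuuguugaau
miR-374b-5p in Ftx: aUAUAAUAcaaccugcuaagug

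The first and second of these share a seed, as do miR-19a and miR-19b and the 3 let-7 members. Mir17hg, the host of the growth-promoting miR-17 to miR-92a cluster (chromosome 14, 115042879 to 115046727), encloses 6 microRNA genes and had 19.5, 19.7 and 20.3 CPM in WT, 16.0, 15.6 and 16.3 CPM in S1S2 and 14.1, 15.2 and 12.3 CPM in G9Gl libraries. Both mutants lay below WT by less than 2-fold (-0.32 and -0.52, adjusted p = 0.0026 and 2.6e-05). 6720427I07Rik (chromosome 13, 48532905 to 48546500) encloses let-7a-1, let-7f-1 and let-7d, microRNAs of differentiated cells. It had 28.3, 25 and 30.8 CPM in WT, 20.9, 23.7 and 21.7 CPM in S1S2 and 21.3, 23.2 and 19.8 CPM in G9Gl libraries (-0.34 and -0.39, adjusted p = 0.0024 and 0.00072).

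Mir155hg, the host of the inflammation-linked miR-155, had 6.58, 4.96 and 6.77 CPM in WT and 3.68, 4.41 and 4.28 CPM in S1S2 libraries (-0.56, SE 0.16, adjusted p = 0.0071), and -0.18 in G9Gl. A430106G13Rik, which encloses miR-181b-1, was the only one of the 9 hosts to be called, where 9% of all genes tested were called in S1S2. It had 2.46, 1.75 and 2.00 CPM in WT, 0.506, 0.984 and 0.846 CPM in S1S2 and 2.07, 1.26 and 1.27 CPM in G9Gl libraries, a fall of 1.39 in S1S2 (adjusted p = 0.00052). Ftx encloses miR-421 and miR-374b, with the values given above. The hosts 2900076A07Rik, 4833445I07Rik, Gm27028 and Snhg20 did not reach an adjusted p of 0.01 against WT. Mirt1 and Carmn were listed with the hosts but enclose no RefSeq microRNA gene on their strand.

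Per kilobase of exon, the highest lincRNAs in WT cells were Gm26917 (7265 CPM per kb), Gm42418 (900.0 CPM per kb), Malat1 (564), Gm10076 (334) and Snhg6 (32.5). Gm26917 and Gm42418 lie side by side on chromosome 17, in a block that holds a copy of ribosomal RNA sequence. Their summed share of all counts was 1.82% to 3.39% in WT, 3.14% to 3.62% in S1S2 and 2.52% to 3.00% in G9Gl libraries, out of 2.41% to 4.24% for all 199 genes. Gm10076 shares 51.3% of its 75-mers with other genes, mainly the ribosomal protein gene Rpl41, and Gm42418 shares 93.1%. Gm26917, Gm42418 and Gm10076 are also the 3 most abundant lincRNAs that reached an adjusted p of 0.01 in no comparison. Without the chromosome 17 pair, the share of counts that fell to lincRNAs was mainly that of Malat1 and Neat1, 0.443% to 0.458% in WT, 0.468% to 0.494% in S1S2 and 0.332% to 0.36% in G9Gl libraries.

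The last question was whether lincRNAs move with the genes beside them. Of the 199, 39 start within 1 kb of a protein-coding start on the opposite strand, 28 overlap a protein-coding gene, 52 lie within 10 kb and 80 farther away. None of the 39 divergent and 28 overlapping lincRNAs rose in G9Gl against WT, whereas 7 of the 52 and 21 of the 80 did. Of the 80 distant lincRNAs, 30% were called in G9Gl and 20% in S1S2, compared with 5.13% and 10.3% of the 39 divergent ones and 10.2% and 9% of all genes tested. The 25 genes that pass the count rule in 1 genotype alone are all outside the divergent and overlapping classes, 19 of them among the distant. Such genes had to differ to be included, so the shares of the distant class are partly fixed by that rule. Shares of the classes without them were not counted. The shares of the classes were not tested against each other.

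For 157 lincRNAs the nearest protein-coding gene was also tested. Across the 107 at up to 10 kb or overlapping, which are genes and not independent replicates, the log2 fold changes of lincRNA and neighbour had a Spearman correlation of 0.35 in S1S2, 0.51 in G9Gl and 0.59 between the mutants. Across the 50 pairs farther apart it was 0.14, 0.09 and 0.24. The values of a pair come from the same libraries, and for close or overlapping pairs may include reads that fit both. Of the lincRNAs called in G9Gl with a tested neighbour within 10 kb, 4 of 10 had a neighbour called in the same direction and 0 in the opposite one. At larger distances it was 1 of 17 and 3 of 17. In S1S2 the counts were 3 of 10 in the same direction and 1 in the opposite one near by, the latter being Snhg18, and 1 of 9 and 0 of 9 farther away. Between the mutants, 6 of 18 near by had a neighbour called in the same direction and 0 in the opposite one. Farther away these were 5 of 20 and 2 of 20. Over all genes tested, 10.2% were called in G9Gl, 9% in S1S2 and 13.1% between the mutants.

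**Figure D4:**
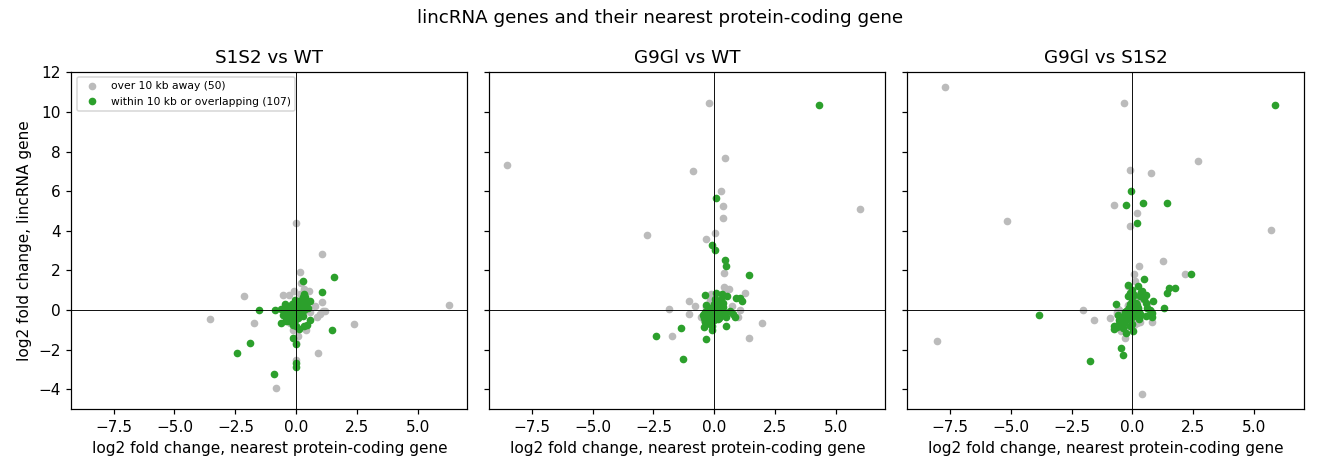
Log2 fold change of each lincRNA (y axis) against that of its nearest protein-coding gene (x axis) in 3 comparisons, for 107 pairs within 10 kb or overlapping (green) and 50 pairs farther apart (grey). The green pair at the upper right of the G9Gl panels is Platr3 with Plcb4, and fitted values above 6 on the y axis are from genes near 0 counts outside G9Gl.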

How the data were processed

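Total RNA of 9 MEF libraries, 3 biological replicates per genotype, was sequenced as 75-base read pairs from a stranded kit. The authors trimmed the reads with cutadapt, aligned them with STAR (version 2.5.2b in the submitters' processing notes) to GRCm38, counted them with TEtranscripts, and deposited raw counts per gene. The annotation release and the strand setting of the counting are not given in the sources used here. Gene types, exons and positions were taken from GENCODE M21 by identifier, and 627 of 47937 genes had no match. The 15540 genes tested are those kept by edgeR's own expression filter, which also kept genes below the lincRNA count rule. They were fitted together over 3 genotypes with edgeR 4.0.16 (R 4.3.3, TMM factors, quasi-likelihood test), and p-values were Benjamini-Hochberg adjusted over all of them. Calls were made at adjusted p values up to 0.01 with changes of 2-fold or more, and the common biological coefficient of variation was 5.36%. CPM are counts scaled to 1000000 per library, using the library total times its TMM factor. SE values come from the spread of log2 CPM (prior count 2) between replicates, and floors of 3 counts cover counting error only. DESeq2 1.42.0 was an alternative. The tests were checked on simulated data.

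Genes were named if they stood in a list, were among the 6 largest called rises or falls of a comparison with a mean of at least 1 CPM and no overlap between libraries, were among the 5 highest in WT per kb, or were among the 3 highest with no adjusted p of 0.01 or less. The genes described and the lists were chosen with earlier results of these data known. Shared 75-mers were counted among annotated transcripts. The comparisons with WT share the WT libraries.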

Additional observations from a re-analysis of the deposited data

Results flagged for a closer look

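For 4 named lincRNAs the 2 mutants moved in opposite directions from WT and the difference between the mutants was itself called by edgeR. Gm42476 was called lower in S1S2 and higher in G9Gl cells, with a log2 fold change of 5.43 for G9Gl against S1S2. Gm26849 moved the same ways, with 5.39. D5Ertd605e did so too, with 5.99, where its fall in S1S2 rests on few counts. These 3 genes were at or under 3 counts in every S1S2 library, so the fitted values carry the direction rather than the size. Gm28321 was called higher in S1S2 and lower in G9Gl cells, with -4.21 for G9Gl against S1S2, and its fall in G9Gl lies at the edge of the threshold. All 4 met the count rule in 1 genotype alone, Gm28321 in S1S2 and the others in G9Gl, so a difference between the mutants was largely fixed by their inclusion. Groups of 3 libraries were not tested for outlying samples.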

How the results depend on the processing

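The counts of called lincRNAs were 27 in S1S2, 34 in G9Gl and 50 between the mutants. Requiring 10 counts in every library gave 13, 9 and 20, and an adjusted p of at most 0.05 with no fold limit gave 72, 76 and 105. Shares of all genes under these settings were not counted. At an adjusted p of at most 0.01 with no fold limit, 20.3% of all genes tested were higher and 17.6% lower in S1S2. In G9Gl these were 19% and 16%, and between the mutants 21.6% and 21.1%. Choosing lincRNAs by 10 counts in 3 libraries gave 46, 60 and 82, and by 30 counts in all 9 gave 4, 3 and 6. Without the genes that pass in 1 genotype alone, an alternative added after seeing the data, 12 remained in G9Gl and 26 between the mutants. Leaving out 1 library gave 24 to 28, 32 to 34 and 46 to 52. The median log2 fold change in G9Gl was -0.16 without a composition factor, -0.096 under the 10-count choice, -0.18 under the choice of all 9 libraries and -0.14 to -0.088 on leaving out 1 library. Between the mutants it was -0.067 with 10 counts in every library, -0.0096 under the 10-count choice, -0.19 under the choice of all 9, 0.016 without genes whose exons overlap another gene, and -0.069 to -0.033 on leaving out 1 library. In S1S2 it ran from -0.092 to -0.052 on leaving out 1 library.

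Replicate numbers did not mark a known pairing: correlations of same-numbered libraries ran from -0.0686 to 0.124. A fit with a replicate block called 26, 34 and 50 lincRNAs, and DESeq2 called 26, 33 and 48. Among named genes, the block, DESeq2 and its size factors ended the call of Gm28321 in G9Gl alone. Of the leave-one-out checks of named genes, 1196 kept direction and side of the threshold, 18 lost the call and 1 gained one. No called result changed sign, while the median between the mutants did, as given above, when genes with overlapping exons were left out. Under the other scalings the median of all genes lay between -0.036 and 0.0062. Low counts limit the lincRNAs: 3 counts were 0.0923 to 0.141 CPM, and a level at or under them gives only a bound on a fold.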
